A study of Caenorhabditis elegans with 2 samples.

Results

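Candidate EOR-1 regions at the promoters of exactly 1 protein-coding gene made up 7250 of the 29970 nuclear candidate regions of the pooled list. A region was a member when its summit, the position of highest signal inside it, lay from 1000 bp upstream to 200 bp downstream of an annotated transcript start of 1 protein-coding gene and of no other. Another 818 regions lay in this window of 2 or more genes, and 21902 lay in the window of none. The members lay at 5212 of 19973 protein-coding genes (26.1%). They were chosen by position alone, without their signal. The animals were L3 larvae of Caenorhabditis elegans strain OP81, which carries the wgIs81 transgene, an eGFP-tagged eor-1, together with unc-119(ed3) on chromosome III. Chromatin was immunoprecipitated from whole organisms of both sexes and sequenced, in 2 biological replicates of this 1 group. There was no second condition, so regions were compared with each other and between replicates. The signal belongs to the tagged protein, from all tissues together, and the control library was not used here. Read depth is not known.

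The eor-1 gene encodes a transcription factor with zinc fingers that takes part in Ras and Wnt signalling during larval development, and a GA-rich sequence has been associated with its binding. In C. elegans many pre-mRNAs receive a spliced leader in place of their own 5′ end. Annotated starts can therefore be trans-splice sites that lie downstream of the position where transcription begins. A candidate region is not by itself a binding site, because the candidate lists hold peaks together with background and hold 30000 regions each. The optimal list is the shorter set that the authors kept after a comparison of the replicates by irreproducible discovery rate. It held 256 nuclear regions, and together with 29 mitochondrial regions they were exactly the 285 regions of highest pooled signal. For nuclear regions, presence in the optimal list is thus the same statement as a pooled signal of 52.7 or more, on the scale of the deposited values, which is not stated.

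The motif recalled for EOR-1 and sequences shared between strong members are shown first, because they recur among the strong members. The motif was chosen with earlier results of these data known. All are from the RefSeq genome of build WBcel235 (ce11), written 5′ to 3′ on the strand given, with positions counted from 1. The motif was searched on both strands, within 50 bp of each summit, as GAGACGCAG or AGACGCAGA, which overlap in 8 bases. It was found at 15 of 85 optimal members, and 12 of these are given here in order of pooled signal, with the motif in capitals. The last 3, at B0546.4, fic-1 and sti-1, lie beyond the 12 motif genes of highest signal and were chosen once their values were known.
ntl-11, chrIV:15471597-15471637, plus strand: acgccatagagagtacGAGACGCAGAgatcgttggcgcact
fust-1, chrII:7152133-7152173, plus strand: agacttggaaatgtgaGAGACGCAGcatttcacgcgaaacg
Y73F8A.27, chrIV:15472568-15472608, plus strand: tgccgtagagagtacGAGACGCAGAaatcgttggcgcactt
ogt-1, chrIII:7154050-7154090, plus strand: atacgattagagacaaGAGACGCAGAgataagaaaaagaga
epn-1, chrX:14819005-14819045, plus strand: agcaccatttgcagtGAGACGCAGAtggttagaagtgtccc
lgg-2, chrIV:10935557-10935597, minus strand: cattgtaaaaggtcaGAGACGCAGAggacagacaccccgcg
C34C12.8, chrIII:3460220-3460260, plus strand: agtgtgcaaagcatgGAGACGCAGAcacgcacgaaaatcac
nurf-1, chrII:14405354-14405394, plus strand: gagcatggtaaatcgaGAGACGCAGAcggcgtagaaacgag
vps-37, chrV:5592515-5592555, minus strand: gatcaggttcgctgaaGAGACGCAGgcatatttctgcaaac
B0546.4, chrIV:3384736-3384776, minus strand: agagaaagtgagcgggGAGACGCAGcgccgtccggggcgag
fic-1, chrIV:10937058-10937098, minus strand: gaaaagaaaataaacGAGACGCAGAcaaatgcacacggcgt
sti-1, chrV:773402-773442, minus strand: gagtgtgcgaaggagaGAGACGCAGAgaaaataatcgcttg
Of the 15 motifs, 12 held both forms as 1 word of 10 bases, GAGACGCAGA. The windows at ntl-11, a CCR4-NOT complex gene, and at Y73F8A.27 were nearly the same sequence. Aligned on the motif, whose shared bases thus match in every pair, they had the same base at 37 of 40 positions (92.5%). The median over all 66 pairs of the windows shown was 43.9%. The genes neighbour each other on opposite strands of chromosome IV, with summits 981 bp apart, and the sequence thus occurs at both ends of the space between them.

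Other shared words, and the genes that hold them, were picked once the values of these summits were known. The word CGCCAGCA lay within 50 bp of the summits of 7 of 85 optimal members (8.24%) and of 6 of the 7165 other members (0.0837%). The capitals mark it in these windows.
his-37, chrV:9547031-9547070, minus strand: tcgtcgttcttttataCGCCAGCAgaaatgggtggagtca
fust-1, chrII:7152158-7152197, plus strand: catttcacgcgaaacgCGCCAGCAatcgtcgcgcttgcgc
Y54G11A.2, chrII:14251853-14251892, minus strand: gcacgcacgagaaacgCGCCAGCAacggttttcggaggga
Y38C1AA.12, chrIV:192210-192249, plus strand: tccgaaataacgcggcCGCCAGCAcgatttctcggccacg
C34C12.8, chrIII:3460244-3460283, plus strand: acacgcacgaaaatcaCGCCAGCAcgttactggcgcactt
Y94H6A.3, chrIV:2676466-2676505, plus strand: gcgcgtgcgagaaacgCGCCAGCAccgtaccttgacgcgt
dnj-9, chrII:4851805-4851844, minus strand: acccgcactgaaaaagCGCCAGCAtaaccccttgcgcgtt
The windows at Y54G11A.2 and Y94H6A.3 had 27 of 40 bases in common (67.5%), those of the word included. The fust-1 and C34C12.8 summits held both this word and the motif. The word GCGCGCACCA lay at 3 of 85 optimal members (3.53%), all among the 8 of highest signal, and at none of the 7165 others (capitals).
tos-1, chrV:9344274-9344313, plus strand: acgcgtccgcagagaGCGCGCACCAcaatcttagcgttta
hsp-1, chrIV:17278558-17278597, minus strand: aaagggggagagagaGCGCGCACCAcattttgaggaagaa
Y39E4B.6, chrIII:13070640-13070679, minus strand: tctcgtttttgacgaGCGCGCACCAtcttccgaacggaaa
The wider sequence around the strongest summits, on the strand of the gene, shows how this word, here read from the opposite strand, runs into a GA repeat at tos-1 and hsp-1. Capitals mark the reverse complement of GAGAG.
tos-1, chrV:9344283-9344383, minus strand: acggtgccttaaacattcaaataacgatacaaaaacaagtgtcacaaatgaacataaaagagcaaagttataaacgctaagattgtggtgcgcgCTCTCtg
hsp-1, chrIV:17278499-17278599, plus strand: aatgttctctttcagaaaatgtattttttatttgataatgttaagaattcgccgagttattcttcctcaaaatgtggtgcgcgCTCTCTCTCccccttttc
A further word, ACTCCTCTCG, lay at 4 optimal members (4.71%) and at 10 of the 7165 others (0.14%). The capitals mark it at the genes of these 4 that are shown.
cyn-10, chrII:6913455-6913494, minus strand: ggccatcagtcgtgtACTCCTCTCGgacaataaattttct
Y65A5A.2, chrIV:16415755-16415794, minus strand: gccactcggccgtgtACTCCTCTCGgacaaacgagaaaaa
The summits of cyn-10 and Y65A5A.2 shared a stretch of 20 bases, as did those of Y65A5A.2 and Y73B6BL.29, the last of which was chosen once its values were known. Words picked from a set of summits are found there by construction, so these counts describe the sequences only.

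The strongest member, chrV:9344223-9344436, lay 130 bp upstream of tos-1, a gene named as a target of splicing factors. Its signal was 163 in replicate 1, 219.9 in replicate 2 and 384 pooled. It ranked first among nuclear regions in all 3 lists. The next, chrIV:17278440-17278644, lay 410 bp upstream of hsp-1, which encodes a constitutive Hsp70 chaperone, with 128 in replicate 1, 139 in replicate 2 and 266 pooled. A region at chrX:11605694-11605944, 442 bp upstream of ftt-2, a 14-3-3 gene, had 116 in replicate 1, 123 in replicate 2 and 232 pooled. These replicate values lay within a factor of 1.5 of each other at all 3 genes. A second ftt-2 region, 654 bp upstream, had 50.6 in replicate 1, 72.6 in replicate 2 and 124.6 pooled. The first ended at the base where the second began, and their summits were 212 bp apart.

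Next in pooled signal came nspc-17, of a nematode-specific peptide family, with 110.1 in replicate 1, 109 in replicate 2 and 210.1 pooled, 737 bp upstream of its start. The histone gene his-37 had 82.9 in replicate 1, 107 in replicate 2 and 193 pooled, with its summit 98 bp upstream. H41C03.3 had 94.0, 114 and 191 in the same order. Replicate 2 was the higher at his-37 and H41C03.3. The insulin-like gene ins-39 had 93.9 in replicate 1, 69.7 in replicate 2 and 169 pooled, and Y39E4B.6 had 90.6, 65.8 and 155. The ntl-11 region had 81.1 in replicate 1, 64.9 in replicate 2 and 143 pooled, and the region at fust-1, which encodes an RNA-binding protein, had 67.1, 54.6 and 127. At these last 4 genes replicate 1 was the higher, so the replicates did not differ in 1 direction among the strongest members.

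The rest of the 30 strongest had pooled signals from 76.2 to 113. Pooled values of 101 to 113 were found at ufbp-1, whose product takes part in protein ufmylation, at the egg activation gene egg-5, at the Integrator complex gene ints-4, at the poly(A) polymerase gene tent-5, at the cyclophilin gene cyn-10, at F08G2.5 and at mdl-1, which encodes a Mad-like transcription factor. Values of 83.3 to 97.1 were found at Y43F8B.2, gei-4, the fibroblast growth factor gene egl-17, Y73F8A.27, the autophagy gene lgg-2, ZK1193.2 and cdc-48.1, which encodes the AAA ATPase p97. Values of 76.2 to 82.7 were found at Y65A5A.2, T02E1.2, K02A6.3, the large ribosomal subunit gene rpl-11.2 and T28B8.1. Of these 30 regions, 28 overlapped one of the 256 strongest nuclear regions in both replicates.

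**Figure D1:**
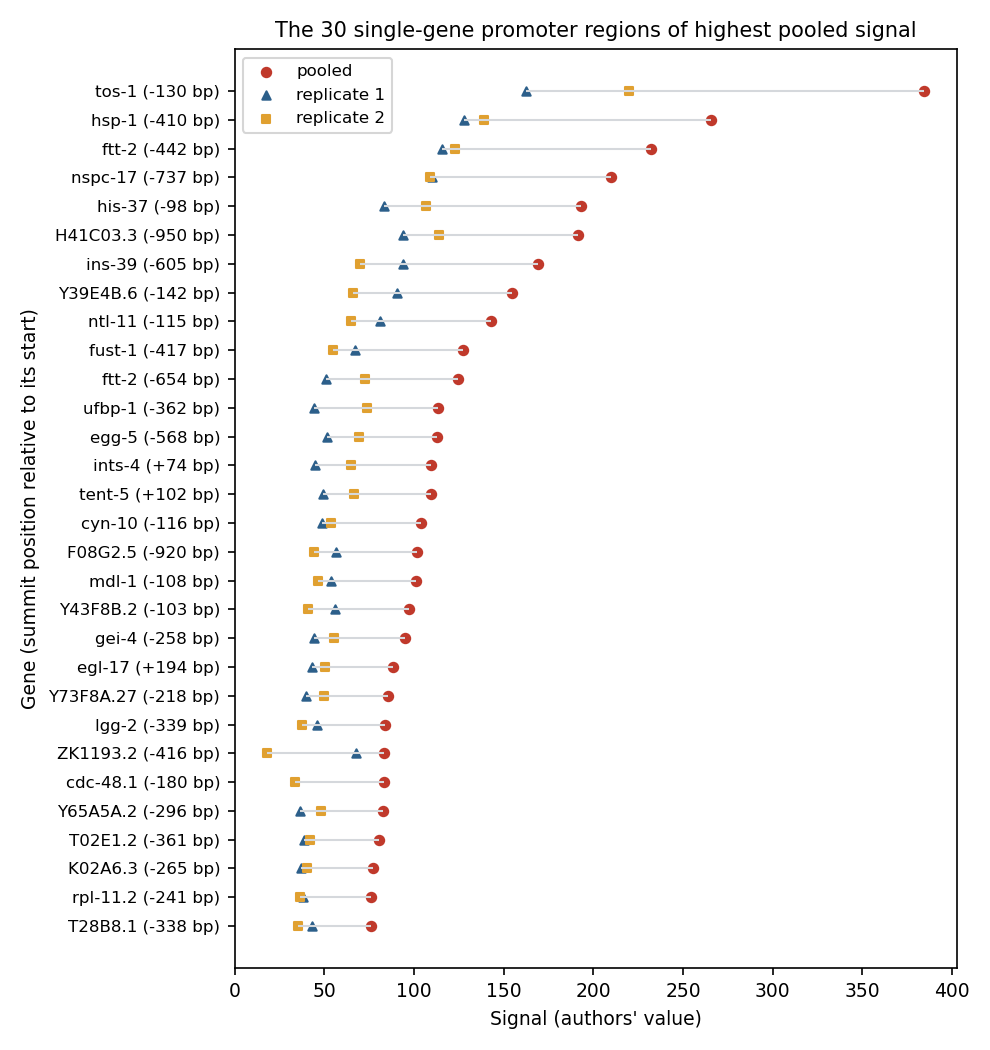
Signal (horizontal axis, the authors' values) of the 30 single-gene promoter regions of highest pooled signal, in the pooled list (circles), replicate 1 (triangles) and replicate 2 (squares); the position of the summit relative to the start stands beside each gene. The tos-1 region stands apart at 384, cdc-48.1 has no replicate 1 value because no candidate region of that replicate overlapped it, and ZK1193.2 has 67.4 in replicate 1 and 18.0 in replicate 2.

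Of the 7250 members, 85 were in the optimal list (1.17%, exact 95% interval 0.938–1.45), while 0.854% of all nuclear candidates were. The same share was 7.09% (5.43–9.07) of regions at 2 or more genes, 58 of 818, and 0.516% (0.425–0.620) of regions at no promoter, 113 of 21902. Single-gene promoter regions thus lay between the other classes. Where they stood against all candidates depended on the window: with one from 500 bp upstream to 100 bp downstream 78 of 4156 single-gene regions were optimal (1.88%), and with one reaching 2000 bp upstream 83 of 10610 were (0.782%), which is below the 0.854% of all candidates. Intervals cover counting error only, and regions of 1 library pair are not replicates of each other. In each replicate taken alone, the 256 nuclear regions of highest signal gave similar shares: 81 members overlapped one of them in replicate 1 (1.12%, background 0.871%) and 80 in replicate 2 (1.10%, background 0.851%).

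Most members were weak and differed little from other candidates. Their median pooled signal was 19.7, with quartiles of 15.9 and 25.1, and the median of all nuclear candidates was 19.4. The median was 22.0 at 2 or more genes and 19.3 at no promoter. The optimal members had a median of 68.4 (quartiles 57.9 and 85.6) and ran from 52.8 at dnj-9, a J-domain co-chaperone gene, to 384 at tos-1. Their medians were 36.3 in replicate 1 and 35.4 in replicate 2. No gap separated them from the rest. The members just below were at Y67D8A.2 (52.3), at hrpu-2 (52.2), which encodes an hnRNP U homologue, and at sor-3 (52.1), D1046.16 (51.7), F02C12.3 (51.6), F58D5.5 (51.3), C18B12.4 (51.3) and the astacin protease gene nas-10 (51.1). The q value did not order the strong members, because 47 of the 85 shared the highest −log10 q of 2.50.

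The median signal hardly moved with distance from the start, while the strong members were most frequent close upstream of it. Distance was measured to the nearest start of the gene whose promoter window held the summit. Another start of the same gene could lie closer, with the summit outside its window. The weaker optimal lgg-2 summit, counted at 534 bp upstream, lay 330 bp from another lgg-2 start. That of tent-5, counted at 700 bp upstream, lay 397 bp from another tent-5 start. From 1000 to 501 bp upstream, 3118 members had a median pooled signal of 19.9, and 22 were optimal (0.706%, 0.443–1.07). From 500 to 201 bp upstream, 2346 members had a median of 20.1, and 31 were optimal (1.32%, 0.900–1.87). Within the last 200 bp upstream, 1177 members had a median of 19.3, and 27 were optimal (2.29%, 1.52–3.32). From the start to 200 bp downstream, 609 members had a median of 18.4, and 5 were optimal (0.821%, 0.267–1.91). The interval within 200 bp upstream lay above that of the farthest upstream range, and overlapped those of both other ranges.

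The same order of the upstream ranges was found in each replicate alone. Of the members within 200 bp upstream, 1.70% (1.04–2.61) overlapped one of the strongest regions of replicate 1 and 1.78% (1.11–2.71) one of replicate 2. From 1000 to 501 bp upstream these shares were 0.898% (0.598–1.30) and 0.738% (0.468–1.10), so that the intervals of the nearest and the farthest upstream range overlapped in replicate 1 and just missed each other in replicate 2. Between them lay the range from 500 to 201 bp upstream, with 1.24% in replicate 1 and 1.19% in replicate 2. Downstream of the start there were 4 such members in replicate 1 (0.657%, 0.179–1.67) and 8 in replicate 2 (1.31%, 0.569–2.57).

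**Figure D2:**
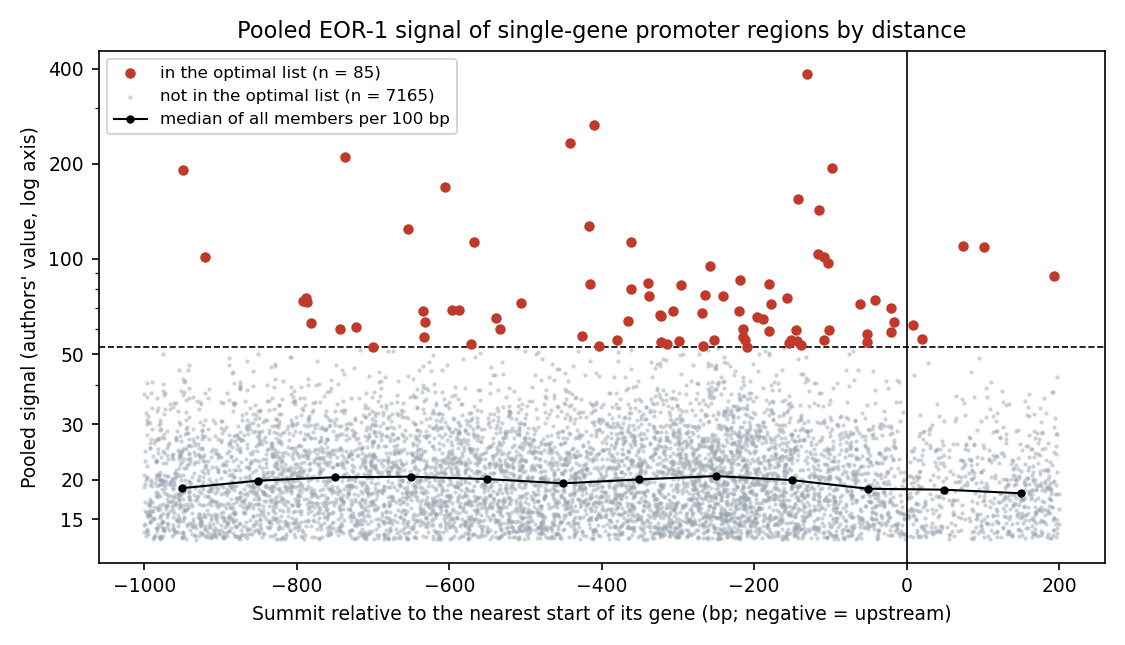
Pooled signal (log axis) of all 7250 members against the position of the summit in bp. The position is relative to the nearest start of the gene whose promoter window held the summit. Optimal members are large points, and the median of all members per 100 bp is a line. The dashed line is the lowest nuclear optimal signal, 52.7. The medians stay between 18.1 and 20.5, while the optimal members gather upstream of the start, and 5 lie at or downstream of it.

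In bins of 100 bp the share was highest from 200 to 101 bp upstream, where 19 of 698 members were optimal (2.72%, 1.65–4.22). It was 1.67% (0.724–3.26) in the last 100 bp before the start, 8 of 479, and 1.46% (0.802–2.44) from 300 to 201 bp upstream, 14 of 957. From 900 to 801 bp upstream none of 621 was optimal, which allows a share of up to 0.483%. Candidates themselves were most numerous from 300 to 201 bp upstream and fewest from 0 to 99 bp downstream, 258. The optimal members lay at a median of 267 bp upstream of the start (quartiles 142 and 506), and the other members at 428 bp (quartiles 205 and 699). Of the optimal members 80 of 85 were upstream (94.1%), against 6561 of 7165 others (91.6%).

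**Figure D3:**
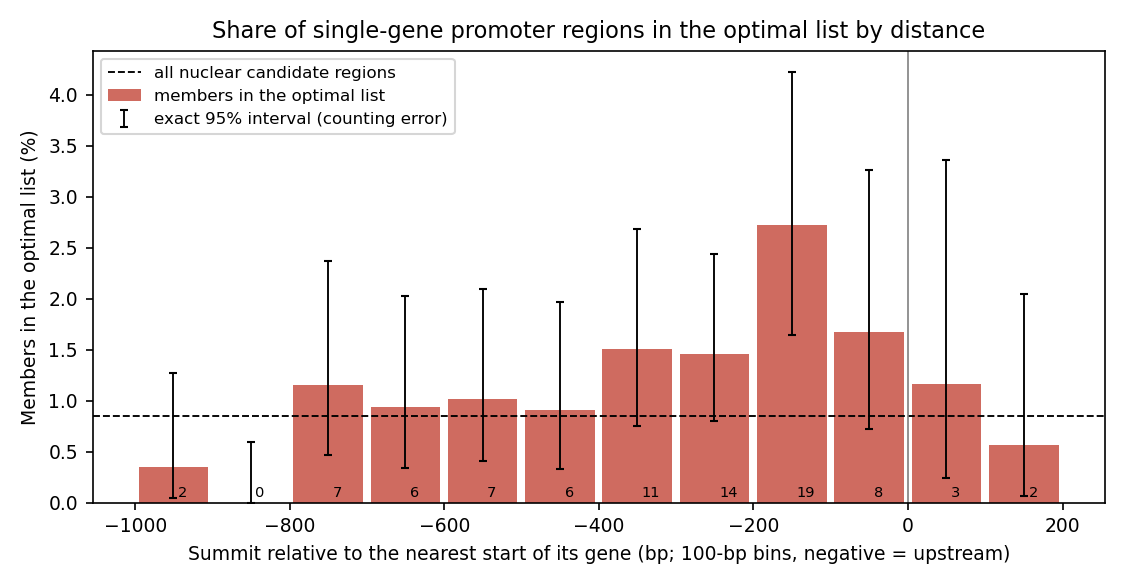
Share of members in the optimal list (bars, with exact 95% intervals and the number of optimal members in each bar) by position of the summit relative to the start in bins of 100 bp; the dashed line is the share among all nuclear candidates, 0.854%. The bar from 200 to 101 bp upstream is the highest at 2.72%, and its interval lies above the dashed line.

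The strongest members of each range show that single strong regions occurred in every range, though not in every bin of 100 bp. From 1000 to 501 bp upstream these were nspc-17 (210.1), H41C03.3 (191) and ins-39 (169), and from 500 to 201 bp hsp-1 (266), ftt-2 (232) and fust-1 (127). Within 200 bp upstream they were tos-1 (384), his-37 (193) and Y39E4B.6 (155), and downstream ints-4 (109.6), tent-5 (109) and egl-17 (88.0). At the edges of the promoter window nothing changed abruptly. The 564 members in the last 100 bp inside its upstream edge had a median of 18.8 with 2 optimal, and the 555 regions in the first 100 bp outside it had 19.3 with 3 optimal. At the downstream edge the medians were 18.1 inside, over 347 members with 2 optimal, and 18.9 outside, over 387 regions with 1 optimal.

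Some of the starts belonged to other RNAs. Counting the starts of genes of all kinds, the member's own gene had the closest one at 66 of 85 optimal members (77.6%, 67.3–86.0), against 6099 of 7250 members in all (84.1%, 83.3–85.0). At 8 of the other 19 the closest start was that of an unclassified non-coding RNA, at 3 of a spliced leader or other small nuclear RNA, at 3 of a tRNA, at 2 of a small nucleolar RNA, at 2 of a piRNA and at 1 of another protein-coding gene. The H41C03.3 summit, 950 bp from that gene, lay 38 bp from the start of sls-2.1, and the egg-5 summit, 568 bp from its gene, lay 49 bp from that of sls-2.4. These genes encode SL2 RNA, the spliced leader placed on downstream genes of operons. The egl-17 summit lay 29 bp and the ZK1193.2 summit 32 bp from the start of a tRNA gene, and ZK1193.2 shared 19 bases with another such summit, at ajm-1, a gene chosen once its values were known. The summit assigned to hsp-1 lay 136 bp from the start of the non-coding RNA F26D10.23, and those assigned to ftt-2 lay 82 bp and 84 bp from starts of F52D10.12 and F52D10.7.

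Small nuclear RNA genes lay within 200 bp of 3 of 85 optimal summits and of 8 of all 7250 (0.11%). For tRNA genes the counts were 3 of 85 and 40 of 7250, and for small nucleolar RNA genes 2 of 85 and 19 of 7250. MicroRNA genes lay near no optimal summit and near 7 members in all, and rRNA genes near none. With counts this small, the intervals of the optimal shares are wide, from 0.734% to 9.97% for tRNA. Which of the neighbouring genes a region acts on, if any, was not measured.

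No optimal summit lay in a coding exon (0 of 85), while 278 of all 7250 members did (3.83%). The limit that 3 counts allow is 3.53% here, but the exact interval of the optimal share reaches 4.25%. That interval includes the share of all members, so a difference in coding exons was not detectable. Of the optimal summits 57 were intergenic (67.1%, 56.0–76.9), against 57.8% of all members. Another 13 lay in introns of their own gene (15.3%, 8.40–24.7), and introns of any gene held 28.5% of all members. Those in a 5′ untranslated region were at ints-4 and tent-5 and at gldi-8, hadb-1 and sms-3, of which the last 3 were chosen once their values were known. Of the remaining 10, 5 lay in the 3′ untranslated region of a neighbouring gene, among them the one assigned to ufbp-1, and 5 in a non-coding gene or pseudogene.

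Most genes with a member had 1, and 4 genes had 2 optimal members. Of the 5212 genes, 3715 had 1 member and 1146 had 2. The most, 12, were at unc-43, which encodes calcium/calmodulin-dependent kinase II and has 20 annotated starts; none was optimal, and unc-43 was chosen once its values were known. The tent-5 gene, with 5 starts, had 10 members, of which those with 109 and 52.8 were optimal and lay 2889 bp apart. At nurf-1, a gene of the NURF chromatin remodelling complex with 16 starts, optimal members with 72.1 and 59.4 lay 5456 bp apart. At lgg-2, which encodes an LC3 family autophagy protein, optimal members with 83.9 and 60.2 lay 669 bp apart, and the region at its neighbour fic-1 (55.4), which runs the other way, lay 832 bp beyond the stronger. The pair at ftt-2 described above was the closest of the 4.

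Members were found again in both replicate lists about as often as any other nuclear region. Of the 7250 members, 3618 overlapped, by 1 bp or more, a candidate of replicate 1 and one of replicate 2 (49.9%, 48.7–51.1), and the background was 49.3%. The share was 59.7% (56.2–63.0) at 2 or more genes. Replicate 1 held 74.4% of the members and replicate 2 held 70.5%. Because each list holds 30000 regions, these shares depend on that length. Recovery followed signal: 24 of the 25 strongest members were in both lists, 112 of the 115 at ranks 86 to 200 (97.4%), 56.1% of those at ranks 2001 to 4000 and 23.7% of the 3250 weakest. The pooled signal comes from the same 2 replicates, so this order is in part built in.

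Of the 85 optimal members 82 were in both lists. The other 3, at cdc-48.1, at the O-GlcNAc transferase gene ogt-1 and the weaker of those at lgg-2, overlapped no candidate of replicate 1. The cdc-48.1 region had 33.5 in replicate 2 and 83.3 pooled, and the nearest replicate 1 summit was 3511 bp away. The ogt-1 region had 54.5 in replicate 2 and 67.2 pooled, with a replicate 1 summit 399 bp away. The lgg-2 region had 45.2 in replicate 2 and 60.2 pooled, and the nearest replicate 1 summit, 669 bp away, had 45.6 there. No optimal member was missing from replicate 2.

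The replicate signals were more closely correlated over the optimal members than over the other members, a split made on the pooled signal. Over the 82 optimal members in both lists, Pearson r was 0.66 on the log2 scale and the Spearman rank correlation 0.45. Over the 3536 other members in both lists these were 0.19 and 0.16, and over all 3618 members in both lists 0.36 and 0.21. The regions share their libraries and depth, so these values describe the lists and carry no p. The split on pooled signal also narrows the range of signal among the other members, so the 2 sets cannot be compared for how well replicates reproduce. Replicate 2 divided by replicate 1 had a median of 1.06 over the 82, and 74 lay within a factor of 2. Of the 8 outside it, 4 were higher in replicate 2 and 4 in replicate 1, among them ZK1193.2 with 67.4 in replicate 1 and 18.0 in replicate 2. Of the 85 optimal members, 40 overlapped one of the 256 strongest nuclear regions of both replicates, and 11 of neither. The pooled signal was close to the sum of both replicates, with a median ratio of 1.00 over the 82.

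**Figure D4:**
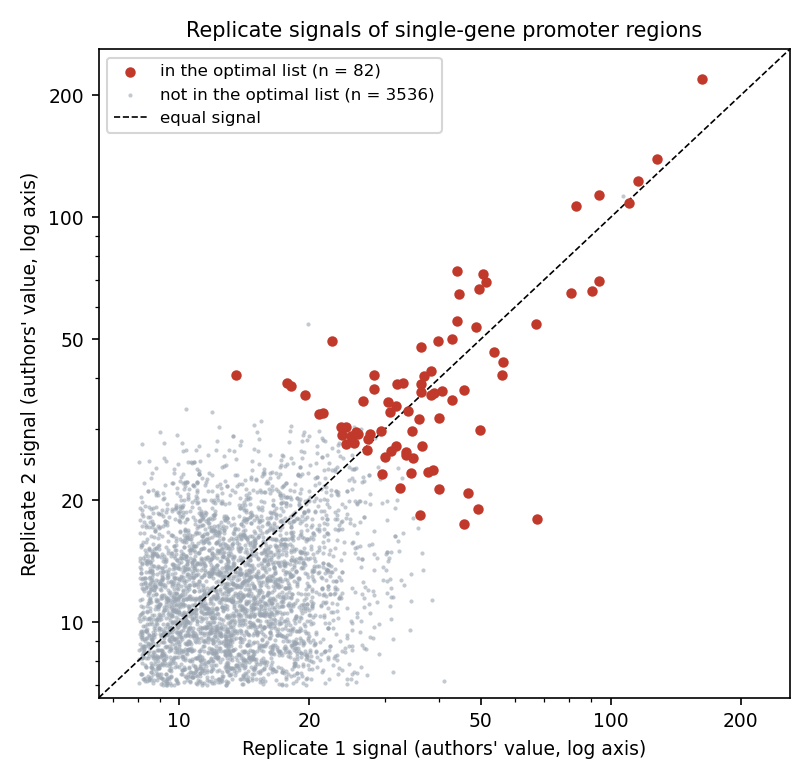
Signal in replicate 2 against replicate 1 (both log axes, the authors' values) for the members found in both replicate lists, with optimal members as large points and the line of equal signal dashed. The optimal members run from below 20 to 219.9, with 74 of 82 within a factor of 2 of the line and a Spearman rank correlation of 0.45. The 3536 others form a cloud with a correlation of 0.16. The split on pooled signal narrows the range of the others, so the 2 values cannot be compared for how well replicates reproduce.

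The motif shown above was found at 15 of 85 optimal members (17.6%, 10.2–27.4), at 33 of 7165 other members (0.461%, 0.317–0.646) and at a background of 0.38% of all nuclear candidates. It was chosen with earlier results of these data known, so its counts are a description and not an independent test. Its core AGACGCAG was the most frequent of the 8-base words shared by the optimal summits, at 16 of 85. In windows of the same 101 bp centred 500 bp to each side of the optimal summits the motif was found in 2 of 170 (1.18%). In such windows beside the other members it was found in 119 of 14330 (0.830%, 0.688–0.993), above the share at their summits. Of optimal regions at 2 or more genes 5 of 58 held it (8.62%, 2.86–19.0), and of those at no promoter 10 of 113 (8.85%, 4.33–15.7). The interval of the single-gene optimal members overlapped both, and a difference from the other optimal regions was not tested. The motif centre lay at a median of 11 bp from the summit, and within 25 bp at 11 of the 15. It lay on the strand of the gene at 7 of 15, and at a median of 221 bp upstream of the start.

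None of the 8 strongest members held the motif. The first that did was ntl-11, and then fust-1, tent-5 and Y73F8A.27, with T28B8.1, ogt-1, the epsin gene epn-1, one region each of lgg-2 and nurf-1, and C34C12.8 among the weaker. The ESCRT-I gene vps-37 (59.3) and E01B7.2 (75.3) held it too, and so did B0546.4, the protein AMPylation gene fic-1 and sti-1, which encodes a co-chaperone of Hsp70 and Hsp90. By rank, 4 of the first 25 members held it, 4 of the next 25 and 7 of the 35 at ranks 51 to 85 (20%, 8.44–36.9). At ranks 86 to 200, just below the optimal list, 3 of 115 did (2.61%, 0.541–7.43). The word of 10 bases occurs 3338 times in the genome on both strands together, and 38 members held it. A match is a description of the letters, and a window without one says nothing about the factor.

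The shorter word GAGAG, searched on both strands and able to overlap the motif, was found at 32 of 85 optimal members (37.6%, 27.4–48.8) and at 587 of 7165 others (8.19%), with a background of 7.03%. Of optimal regions at 2 or more genes 31.0% held it, and of those at no promoter 30.1%. It was found in 28 of 170 windows beside the optimal summits (16.5%). Beside the other members it was found in 1890 of 14330 windows (13.2%, 12.6–13.8), above the share at their summits. The other members were thus low in both words at the summit itself. It was at 15 of the 25 strongest members, 7 of the next 25 and 10 of the 35 after those. Base composition differed between the optimal and the other members too. The 101 bp around the summit had a median GC content of 41.6% at optimal members, against 25.7% at the others. It was 42.6% at optimal regions of 2 or more genes and 36.6% at those of no promoter. Among the optimal members it was 48.5% at the 25 strongest, 33.7% at the next 25 and 40.6% at ranks 51 to 85. In the windows 500 bp away the medians were 38.6% for optimal members and 33.7% for the other members. The part of base composition in the word counts was not tested.

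**Figure D5:**
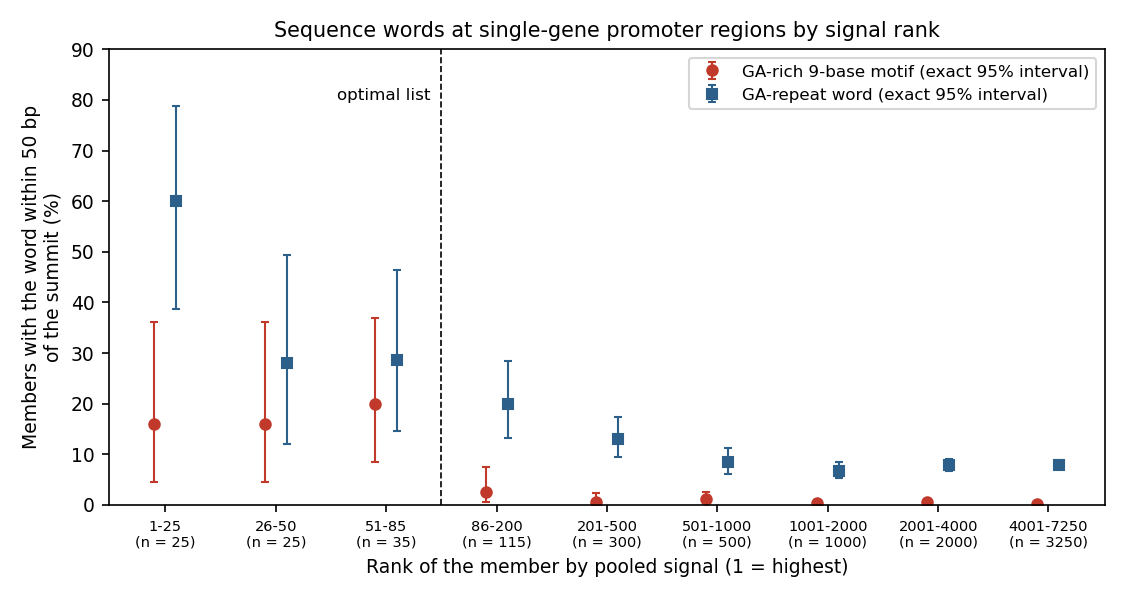
Share of members with the motif (circles) or with the GA-repeat word GAGAG (squares) within 50 bp of the summit, by rank in pooled signal, with exact 95% intervals; the dashed line is the end of the optimal list. The motif is at 16% to 20% of the members inside the optimal list and at 2.61% or less outside it, and GAGAG is highest, at 60%, in the first 25.

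Gene groups were set by symbol, and their members described by counts. Among genes of heat shock proteins and J-domain co-chaperones, 25 members lay at 19 of 53 genes, and 2 were optimal, those at hsp-1 (266) and dnj-9 (52.8). Their median signal of 18.9 was near the 19.7 of all members, of which 1.17% were optimal. Histone genes had 11 members, and those at his-37 (193) and at the H3.3 gene his-71 (57.0) were optimal. Of the pair of 14-3-3 genes, ftt-2 had both its members in the optimal list and the other gene had no member. The cytosolic ribosomal protein genes had 17 members with a median of 29.997, and 1, at rpl-11.2 (76.2), was optimal.

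Among 18 members at insulin-like genes 1 was optimal, at ins-39, and among 15 members at 9 of 19 genes of Ras and ERK signalling 1 was optimal, at egl-17 (88.0; 42.9 in replicate 1 and 50.1 in replicate 2). The median over these Ras and ERK members was 16.6. None of the 340 members at chemoreceptor genes was optimal, which allows a share of up to 0.882%, and their median was 18.1. None of the 167 members at nuclear hormone receptor genes was optimal either (up to 1.80%). The same held for smaller groups, among them 41 members at cuticle collagen and dpy genes, 40 at F-box genes, 32 at neuropeptide genes, 29 at ceh homeobox genes, 18 at C-type lectin genes and 17 at mitochondrial ribosomal protein genes. In groups this size a count of 0 allows shares of 7.32% or more, above that of all members, so no difference was detectable. Other groups, chaperonins, proteasome, translation factors, tRNA synthetases and SWI/SNF subunits, had 1 to 11 members each, with none optimal.

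Across chromosomes the share of members in the optimal list ran from 0.664% on V (10 of 1505, 0.319–1.22) to 1.46% on III (14 of 956, 0.803–2.44), and the intervals overlapped. Chromosome X held 19 of the 85, of 1387 members (1.37%). The members made up 28.4% of the 67 nuclear optimal regions on X and 39.0% of the 41 on IV. Median signals ran from 19.0 on V to 20.5 on X. Widths were fixed at 296 bp in the pooled list, with 6 exceptions among members, all of them optimal, from 96 bp at ntl-11 to 251 bp at ftt-2.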

How the data were processed

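Chromatin immunoprecipitation with sequencing was measured in 2 biological replicates of 1 group, with fragments of 150 to 350 bp per the labels. Candidate regions were called by the authors on each replicate and on pooled alignments with a control, and the optimal list was drawn from these, per the deposited README. Names and versions of the aligner and caller, and the threshold, were not given in the sources used here. Each deposited region has a signal, whose scale is unstated, and a q value as −log10. Lists in ce11 were used. Read depth is unknown, so single signal values have no error.

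Starts came from Ensembl release 115, of all transcripts of protein-coding genes. Overlap was 1 bp or more, and a region was optimal when its interval and summit were in the optimal list. Shares have 95% intervals by the exact Clopper-Pearson method, for counting error alone; a count of 0 is given with the limit that 3 counts allow. Distance, overlap and word searches were tested on simulated data. No test across groups was possible with 1 group. The software was SciPy 1.17.1, pandas 2.3.3, numpy 2.4.6 and matplotlib 3.10.9 under Python 3.11.15.

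Members, words and gene lists were chosen with earlier results of these data known. Genes named are those of the 30 strongest optimal members, the 8 strongest others, the 3 strongest per distance range, up to 3 optimal members per list, optimal members missing from a replicate list, genes with 2 optimal members and up to 12 motif genes by signal. Lists follow symbol patterns, and the replication protein A genes (rpa) were taken out of the ribosomal list after the files were seen. Results for 1 further list are not reported here. Alternatives were other windows, starts, overlaps, motif settings, lists and each replicate alone.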

Additional observations from a re-analysis of the deposited data

How the results depend on the processing

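Of 38 alternatives to the values reported, 29 stayed within the exact 95% interval of the value or, for counts, within 1.5 times of it, and 9 did not. With a window from 500 bp upstream to 100 bp downstream, 4156 regions were members, 1.88% of them in the optimal list, with a median signal of 19.9. With a window reaching 2000 bp upstream, 0.782% were in the optimal list, below the 0.854% of all nuclear candidates, so the higher share of single-gene promoter regions was not found with that window. Of the 7250 members 0.634% were in the stronger part of the optimal list, at or above its median signal. Members in both replicate lists fell to 32.4% when summits had to lie within 100 bp and to 38.8% with a reciprocal overlap of 0.5 of each region; with 1 replicate left out, the share in the other's list was 70.5% to 74.4%. The share in the optimal list was 1.10% to 1.12% with 1 replicate left out, and the median upstream distance of optimal members 242.5 to 274 bp. An overlap of 1 bp with an optimal region, added after the data were seen, gave 1.24%. The motif share was 11.8% within 25 bp, 21.2% within 100 bp and 18.8% with the core AGACGCAG. Some of these shifts were fixed in advance. A stricter overlap can only lower a share, and 1 replicate list holds at least the members that both hold. The stronger part of the optimal list is smaller than the whole. Taking the pooled regions of highest signal could change nothing, because they are the optimal list itself. The count of 29 is therefore no measure of robustness. The cause of the shifts with the window was not tested. No paired analysis was possible because there was 1 group. Read depth is unknown, so the limit it sets on weak members could not be computed.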
